A study of Mus musculus with 24 samples.

Results

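The comparison described here set cardiac fibroblasts collected 4 weeks after a sham operation against those collected 1 week after it. It used 9 of the 24 libraries of the series: 5 sham libraries at 4 weeks and 4 at 1 week. All 1717 circular RNAs of the deposited table entered it. The series studies circular RNA in cardiac fibrosis, and its other libraries came from sham hearts at 8 weeks and from hearts under transverse aortic constriction (TAC), in which a ligature around the aortic arch raises the load on the left ventricle. The mice of all groups were male C57BL/6J animals operated on at 8 weeks of age. Sham animals had the anaesthesia, ventilation and opening of the chest without the ligation, so the comparison follows the heart through recovery from surgery without pressure overload. No unoperated heart was among the groups, and the 4-week hearts were also 3 weeks older than the 1-week hearts, so time after surgery and age cannot be told apart. Fibroblasts were obtained by Langendorff perfusion of the excised heart, and total RNA depleted of ribosomal RNA was sequenced. The labels do not say which libraries came from separate animals, so the p-values below measure the spread between libraries, part of which may be technical.

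A circular RNA forms when the end of a downstream exon is spliced back to the start of an upstream exon of the same transcript, and the reads that cross this back-splice junction count the circle apart from its linear mRNA. Circles have no free ends, are turned over slowly in many cells, and are diluted when cells divide. Cardiac fibroblasts are the matrix-producing cells of the heart: after injury they proliferate, become contractile and lay down collagen, and then leave that state as the wound settles.

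Of the 12 circular RNAs with the smallest p in the comparison, 8 were made of coding exons alone, and their junctions are shown because these joins are what was counted. Each line gives the last 20 bases of the downstream exon in lower case, then the first 20 bases of the upstream exon in capitals, 5′ to 3′ on the RNA strand, from the GENCODE transcripts of the mouse build mm10.
Arhgef40, exons 11 to 13, chr14:51994880-51996407, plus strand: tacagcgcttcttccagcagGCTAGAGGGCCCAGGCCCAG
Gigyf2, exons 4 to 8, chr1:87364104-87380008, plus strand: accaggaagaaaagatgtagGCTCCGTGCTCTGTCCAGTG
Lrp6, exon 2, chr6:134541652-134542045, minus strand: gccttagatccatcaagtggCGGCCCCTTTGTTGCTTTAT
Mtss1, exons 4 to 6, chr15:58968839-58972560, minus strand: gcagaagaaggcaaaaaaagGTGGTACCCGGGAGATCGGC
Efnb2, exon 2, chr8:8639206-8639489, minus strand: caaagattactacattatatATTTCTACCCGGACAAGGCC
Tlk1, exons 2 to 3, chr2:70770004-70786995, minus strand: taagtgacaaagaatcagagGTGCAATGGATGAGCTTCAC
Dennd1a, exons 11 to 12, chr2:37961641-37983105, minus strand: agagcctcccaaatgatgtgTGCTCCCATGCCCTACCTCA
Vav3, exons 13 to 15, chr3:109525869-109528384, plus strand: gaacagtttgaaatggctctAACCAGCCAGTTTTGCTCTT
The first 3 had higher means at 4 weeks and the other 5 lower means. In Lrp6 and Efnb2 the circle is a single exon, so the capitals are the start of the same exon whose end precedes them.

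Depth was low. The 1-week libraries held 3752 to 5522 junction reads and the 4-week libraries 3618 to 6524, and 57.0% of the circular RNAs had a mean under 2 reads per library. Values below are normalized reads as the authors scaled them, in which 1 read was worth 0.868 to 1.57 in these 9 libraries, so a value near 1 is a single read. Mean totals were 4681 ± 725 reads at 1 week (SD, n = 4) and 5666 ± 1188 at 4 weeks (n = 5), a difference that did not pass an exact two-sided permutation test (p = 0.198, adjusted over 3 library measures 0.595; without the 4-week library 2, the shallowest, p = 0.0286). At an equal depth of 3618 reads the libraries held an expected 1150 ± 55.5 circular RNAs at 1 week and 1171 ± 7.91 at 4 weeks (exact permutation p = 0.540, adjusted 0.810). The 10 most abundant circles took 9.53% ± 2.68 and 9.71% ± 0.878 of the reads (exact permutation p = 0.913, adjusted 0.913). The smallest p these tests allow is 0.00794. One 1-week library stood apart: library 1 had the fewest circles at equal depth, 1073 against 1152 to 1202 in the other 1-week libraries, and the 10 most abundant circles took 13.4% of its reads, against 7.38% to 9.04%. Across the 272 circular RNAs with a mean of at least 5 reads, the log2 levels of 2 libraries correlated at 0.21 to 0.53 within 1 week, at 0.44 to 0.67 within 4 weeks and at 0.27 to 0.59 between the weeks. These are correlations across circles, which share depth and host genes, and the 1-week libraries were no closer to each other than to the 4-week libraries.

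**Figure D1:**
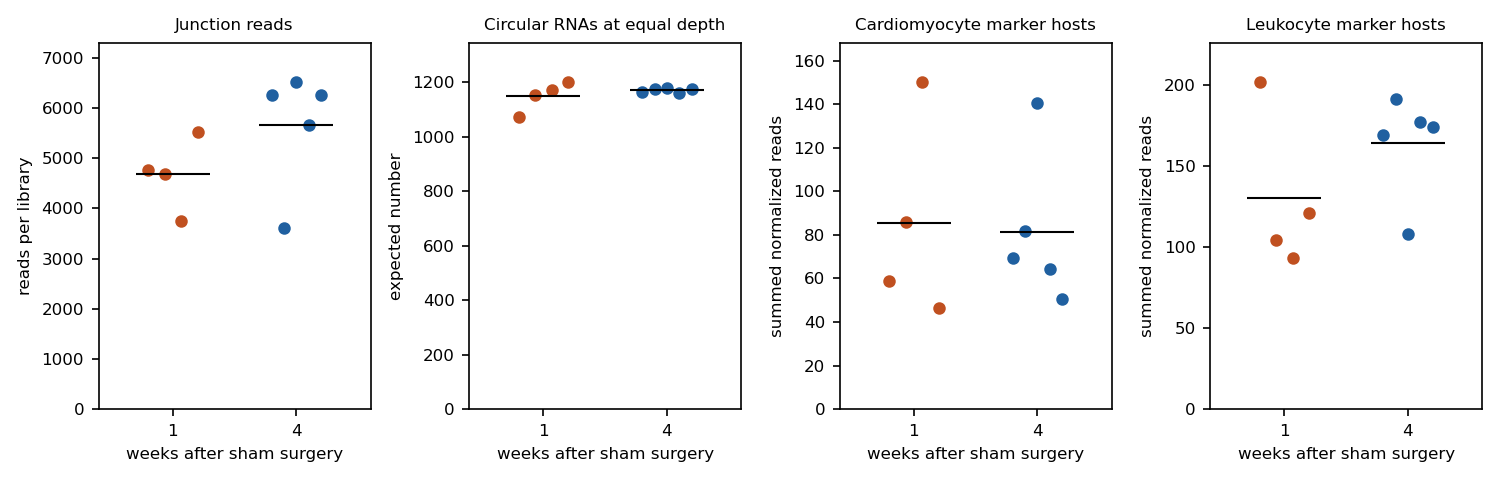
Each point is 1 sham library and each line the group mean, at 1 week (n = 4) and 4 weeks (n = 5) after surgery. The panels show junction reads, the number of circular RNAs expected at 3618 reads, and the summed normalized reads of circles from cardiomyocyte and leukocyte marker hosts; the groups overlap in every panel.

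No circular RNA passed the test of 4 weeks against 1 week: 0 of 1717 (0%) had an adjusted p under 0.05, and the smallest adjusted p was 0.101. That fit takes its spread from all 24 libraries. With the 9 sham libraries fitted alone, the smallest limma adjusted p was 0.410. At an unadjusted p under 0.05, 81 circles were higher at 4 weeks (4.72% of those tested) and 49 lower (2.85%), 130 in all where 85.9 would be reached with no change in any circle. limma-voom, a second method that models the reads, also called 0, with 101 at an unadjusted p under 0.05, of which 47 were higher and 54 lower, so that the excess of higher over lower circles was not seen with it. In 18 circles (1.05%) every 4-week library was above every 1-week library, and in another 18 (1.05%) every one was below. The median log2 fold change over all circles was 0.08, and 918 of 1717 were positive (53.5%). The standard error of a log2 fold change had a median of 0.75 over all circles and 0.50 over the 272 that averaged 5 reads or more, so a change by a factor near 2 was within about 2 standard errors for most circles, and an adjusted p above the threshold does not show that a circle stayed the same.

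**Figure D2:**
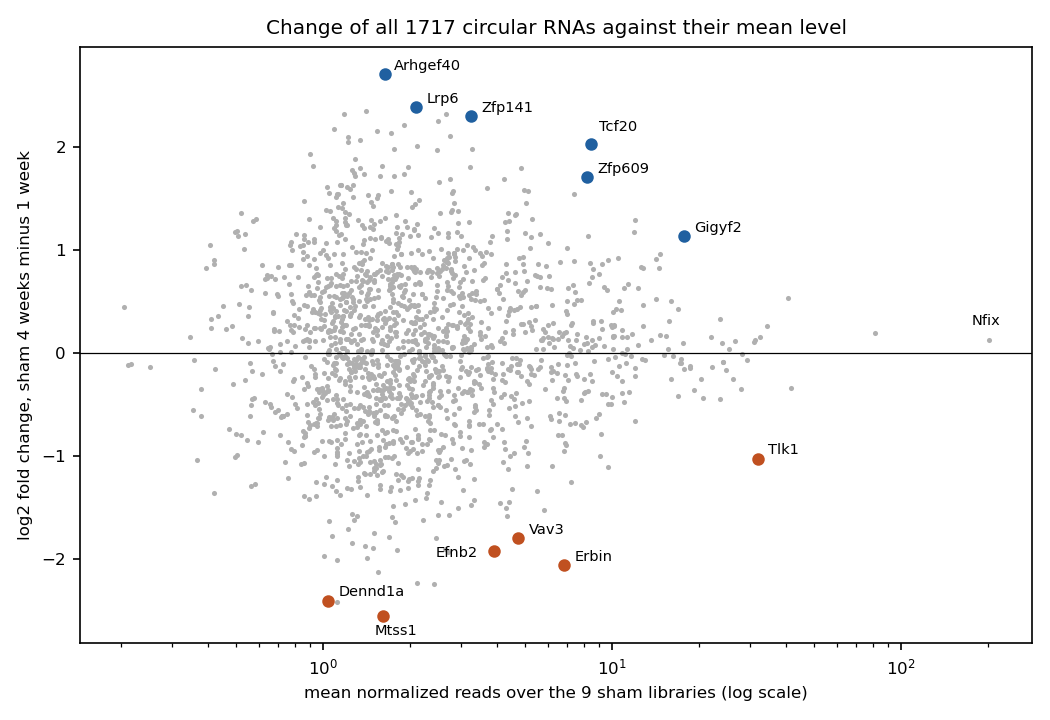
Each point is 1 of the 1717 circular RNAs, with its mean normalized reads over the 9 sham libraries (log scale) across and its log2 fold change of 4 weeks against 1 week up. The 12 circles of smallest p are coloured and named by host; none passed the test, and the abundant circle of Nfix lies at 0.13.

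The 12 circles of smallest p are given next as measurements that did not pass. Of these, 6 had higher means at 4 weeks and 6 lower means, and each was chosen for the size of its difference relative to its error.

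Among the 6 higher circles, the one of Tcf20, a chromatin-bound transcriptional coregulator, joins exons 2 and 3 and includes untranslated sequence (chr15:82825231-82857284, minus strand). It measured 0, 1.25, 7.51 and 8.27 normalized reads in the 4 libraries of 1 week and 8.41, 14.1, 6.07, 19.3 and 11.1 in the 5 libraries of 4 weeks. Of the 5 libraries at 4 weeks, 4 were above every 1-week library, and the groups overlapped through the lowest 4-week value. The log2 fold change was 2.03 ± 0.50 (SE; limma adjusted p = 0.101). It passed when 1-week library 3 was left out (2.54, adjusted p = 0.00285), when 1-week library 4 was (2.58, adjusted p = 0.00383) and when 4-week library 3 was (2.23, adjusted p = 0.0418). Without 1-week library 1, which had 0 reads of it, the log2 fold change was 1.20 (adjusted p = 0.318). This circle did not pass in the other settings. The limma adjusted p was 0.410 when the 9 sham libraries were fitted alone, and it was 0.346 in limma-voom. A second Tcf20 circle, exon 2 alone (chr15:82851513-82857284), shares the start of the first. It measured 4.51 to 6.28 at 1 week and 4.71 to 20.4 at 4 weeks, a log2 fold change of 0.77 ± 0.45 (adjusted p = 0.733).

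Zfp609 encodes a zinc finger protein, and its circle is the large exon 2 by itself, with untranslated sequence (chr9:65794622-65795495, minus strand); the same circle is well known from muscle precursor cells. It measured 5.02, 2.49, 1.5 and 5.17 at 1 week and 14, 15.7, 9.55, 12.2 and 8.29 at 4 weeks. Every 4-week library was above every 1-week library. The log2 fold change was 1.71 ± 0.46 (adjusted p = 0.189). The adjusted p was 0.0135 when only the 272 circles with a mean of at least 5 reads were tested, and 0.0447 without 1-week library 1. It did not pass in the other settings. The adjusted p was 0.312 without 1-week library 3, 0.525 without 4-week libraries 1 and 2, and 0.436 in limma-voom.

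Zfp141, another zinc finger protein, had a circle of exons 3 to 5 with untranslated sequence (chr7:42488470-42490276, minus strand). It measured 2.51, 1.25, 0 and 0 at 1 week, 3 reads in all, and 6.54, 6.28, 4.34, 2.04 and 6.45 at 4 weeks. The pooled reads gave a ratio of 5.46 with a counting interval of 1.67 to 28.3, and the log2 fold change was 2.30 ± 0.67 (adjusted p = 0.209). The adjusted p was 0.0457 without 1-week library 1 and 0.644 without 4-week libraries 1 and 2.

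Arhgef40 encodes a guanine nucleotide exchange factor. Its circle had 0 reads in all 4 libraries of 1 week and measured 3.74, 1.57, 1.74, 4.07 and 3.69 at 4 weeks, from 15 reads. The 4-week mean was at least 3.19-fold higher than a floor of 3 reads over the 1-week group. The fitted log2 fold change was 2.71 ± 0.75 (adjusted p = 0.189) and depends on the pseudocount.

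Lrp6, the Wnt co-receptor, had a single-exon circle measured at 0, 0, 0 and 1.03 at 1 week, 1 read in all, and at 8.41, 3.14, 2.6, 1.02 and 2.76 at 4 weeks. One 4-week library overlapped with the 1 read of 1 week. The pooled ratio was 11.8 with a counting interval of 1.86 to 492, and the log2 fold change was 2.39 ± 0.75 (adjusted p = 0.221). The other Lrp6 circle, exons 4 to 7, measured 5.85 ± 2.48 at 1 week (SD, n = 4) and 5.35 ± 2.92 at 4 weeks (n = 5).

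Gigyf2, a partner of the cap-binding repressor 4EHP in translational silencing, had the best-read circle of the 6. It measured 8.79, 7.48, 15 and 10.3 at 1 week and 13.1, 25.1, 24.3, 32.6 and 23.0 at 4 weeks. The lowest 4-week library lay inside the 1-week range and the other 4 were above it. The log2 fold change was 1.13 ± 0.35 (adjusted p = 0.221). Its other circles share the start at exon 4 and end at exon 5 or exon 6. The shorter measured 1.20 ± 1.03 and 2.75 ± 1.85 at 1 and 4 weeks, and the longer 2.51 ± 1.45 and 2.81 ± 2.52.

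Among the 6 lower circles, Erbin, a scaffold protein that binds the receptor ErbB2, had a circle of exons 2 to 4 with untranslated sequence (chr13:103884143-103889285, minus strand). It measured 2.51, 7.48, 19.5 and 18.6 at 1 week and 5.61, 1.57, 4.34, 0 and 1.84 at 4 weeks. The groups overlapped through 1-week library 1, the lowest of its group. The log2 fold change was -2.06 ± 0.58 (adjusted p = 0.194), and without that library it was -2.63 (adjusted p = 0.0153). Without 4-week library 4, which had 0 reads of the circle, it was -1.50 (adjusted p = 0.449).

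Mtss1 encodes a protein that bends membranes and links them to actin. Its circle measured 3.77, 1.25, 4.51 and 4.14 at 1 week and 0.934, 0, 0, 0 and 0 at 4 weeks, a single read in the 5 libraries. The groups did not overlap. The pooled ratio of 1 week over 4 weeks was 16.8 with a counting interval of 2.44 to 722, and the log2 fold change was -2.55 ± 0.75 (adjusted p = 0.209).

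Dennd1a activates the GTPase Rab35 in endocytic recycling. Its circle of exons 11 to 12 measured 2.51, 1.25, 1.5 and 4.14 at 1 week and had 0 reads in all 5 libraries of 4 weeks. The 1-week mean, from 8 reads, was at least 3.86-fold higher than a floor of 3 reads over the 4-week group (fitted log2 fold change -2.40 ± 0.76, adjusted p = 0.221). The host's other circle, exons 4 to 5, measured 3.19 ± 2.93 at 1 week and 2.74 ± 2.79 at 4 weeks.

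Efnb2 encodes ephrin-B2, a membrane ligand of Eph receptors. Its single-exon circle measured 2.51, 6.23, 12 and 6.20 at 1 week and 0.934, 0, 3.47, 1.02 and 2.76 at 4 weeks, a log2 fold change of -1.92 ± 0.59 (adjusted p = 0.221; -1.25 without 4-week libraries 1 and 2). The groups overlapped between the lowest 1-week library and the 2 highest of 4 weeks.

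Tlk1, a kinase of histone chaperones, had the most abundant circle of the 12. It measured 46.5, 44.9, 36.1 and 39.3 at 1 week, the tightest 1-week group among them relative to its mean, and 32.7, 7.86, 45.1, 11.2 and 24.9 at 4 weeks. The 4-week libraries spread from well below the 1-week range to inside it, and the log2 fold change was -1.02 ± 0.32 (adjusted p = 0.221).

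Vav3 is a guanine nucleotide exchange factor that acts below receptors of leukocytes and other cells. Its circle of exons 13 to 15 measured 8.79, 4.99, 9.02 and 7.24 at 1 week and 2.80, 6.28, 1.74, 0 and 1.84 at 4 weeks. Of the 5 later libraries, 4 were below all of the earlier ones, and the log2 fold change was -1.79 ± 0.57 (adjusted p = 0.221; -2.51 without 4-week libraries 1 and 2). The Vav3 circle of exons 16 to 19 measured 9.30 ± 4.51 and 10.7 ± 5.33 at 1 and 4 weeks, and that of exons 18 to 19 measured 1.00 ± 1.23 and 1.49 ± 1.40. Whether circles of a host differ in their change was not tested.

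**Figure D3:**
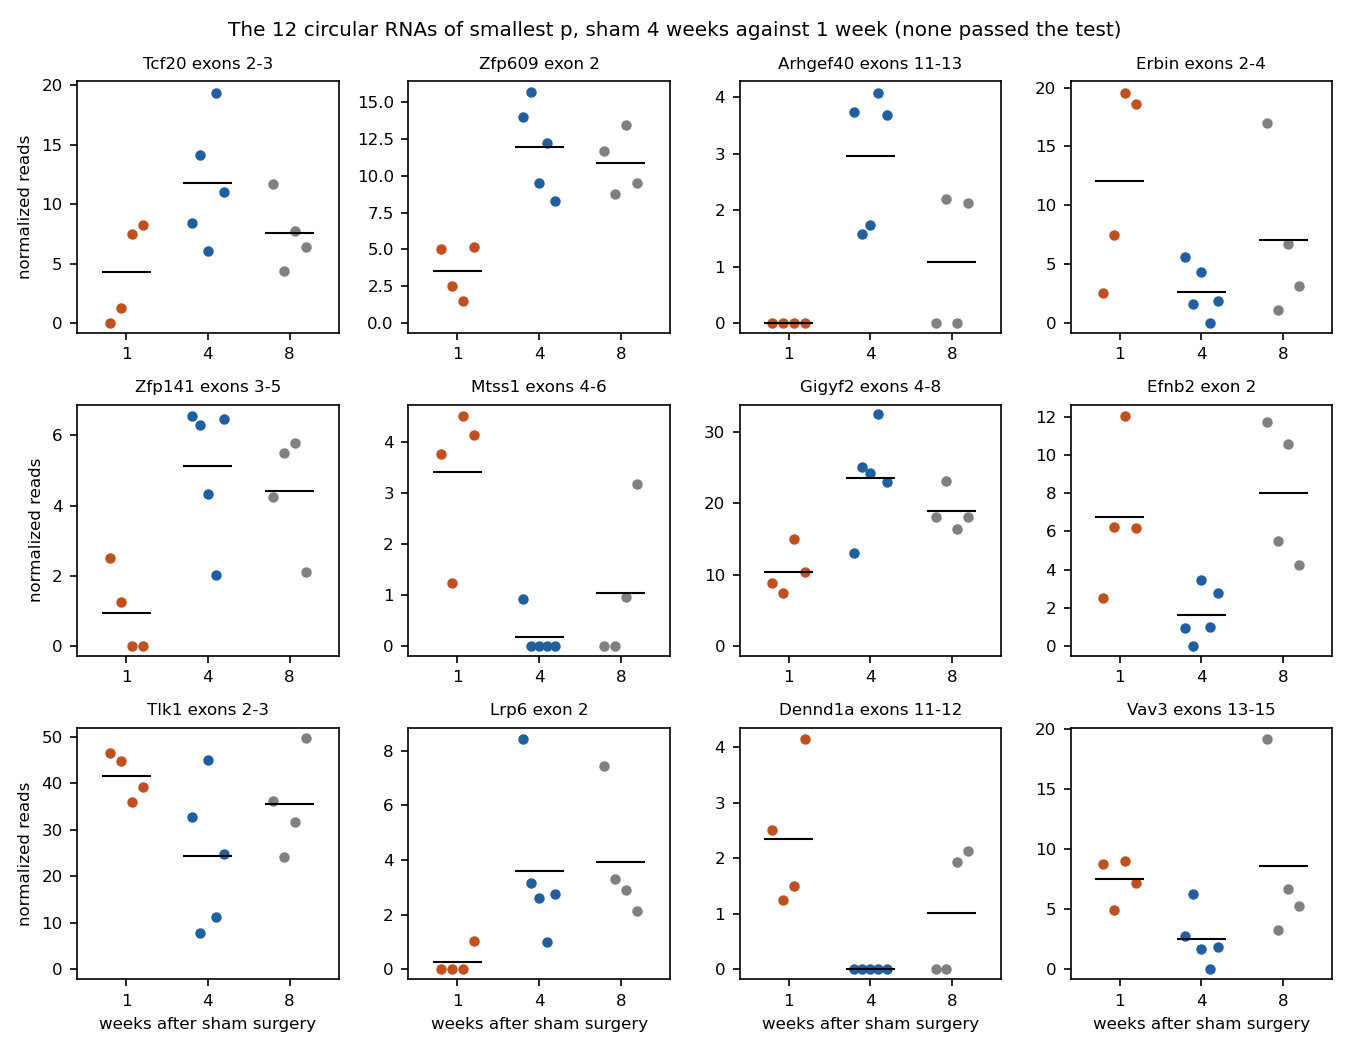
Normalized reads of the 12 circular RNAs of smallest p in every sham library at 1 week (n = 4), 4 weeks (n = 5) and 8 weeks (n = 4), with a line at each group mean. The groups of 1 and 4 weeks do not overlap for Zfp609, Arhgef40, Mtss1 and Dennd1a. The 8-week libraries entered the choice of the circles only through the spread shared by all 24 libraries of the fit.

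The sham libraries of 8 weeks are set beside these values without a test. They entered the choice only through the spread shared by all 24 libraries of the fit. The 12 circles were chosen for their 1-week and 4-week values, so the 8-week values are no independent check against either group. The circle of Zfp609 measured 8.80 to 13.5 at 8 weeks, above every 1-week library. That of Gigyf2 measured 16.4 to 23.1, also above all 4, and Lrp6 measured 2.12 to 7.45, above all 4 as well. The exon 2 circle of Tcf20 was at 10.6 to 20.2, against 4.51 to 6.28 at 1 week, whereas the circle of exons 2 and 3 was at 4.40 to 11.7 and overlapped the 1-week libraries. Efnb2 was at 4.24 to 11.7, above every 4-week library and overlapping the 1-week values, and Tlk1 at 24.2 to 49.9. Mtss1, Dennd1a and Arhgef40 each had 0 reads in 2 of the 4 libraries of 8 weeks and at most 3.18, 2.12 and 2.20 in the others.

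The 5 most abundant circles, among them that of Adgre1 described with the leukocyte hosts, did not pass the test. Nfix, a nuclear factor I transcription factor, had the leading circle (exon 2, chr8:84771784-84772315, minus strand), which measured 299, 196, 120 and 169 at 1 week and 186, 250, 154, 227 and 215 at 4 weeks. Its group means were 196 ± 75.5 (SD, n = 4) and 206 ± 37.4 (n = 5), with a log2 fold change of 0.13 ± 0.14 (adjusted p = 0.870). Med13l, of the kinase module of Mediator, had a circle of exon 2 at 77.1 ± 24.7 and 85.5 ± 14.8 (log2 fold change 0.19 ± 0.22). Mmp15, a membrane-bound metalloproteinase, had a circle of exons 2 to 3 at 50.8 ± 36.5 and 34.4 ± 12 (-0.34 ± 0.28). Fbxw4, an F-box protein of ubiquitin ligases, had a circle of exons 2 to 5 at 32.1 ± 16.8 and 36.2 ± 8.57 (0.27 ± 0.30). In Nfix, Med13l, Mmp15 and Fbxw4 alike, the highest 1-week value was that of library 1.

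The table was then read by the function of the host genes, and no list held a circle that passed. The counts of each list are to be read against those of all circles, of which 53.5% were higher at 4 weeks, 4.72% were higher at an unadjusted p under 0.05 and 2.85% were lower at it. List members other than the one of smallest p were chosen for naming after their values were seen. Circles of extracellular matrix hosts numbered 25 from 16 genes, with 12 higher (48.0%) and 13 lower at 4 weeks and a median log2 fold change of -0.02, against 0.08 for all circles. Only 1 of the 25 had an unadjusted p under 0.05: Lama2, a chain of the basement membrane protein laminin, whose circle of exons 18 to 22 measured 1.26, 0, 1.5 and 0 at 1 week and 4.67, 1.57, 1.74, 2.04 and 2.76 at 4 weeks (1.57 ± 0.75, adjusted p = 0.586). The groups did not overlap, though 1 week rested on 2 reads. The table lists no circle of Col1a1, so the main fibrillar collagen of scar was not measured here.

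Hosts of the contractile and adhesion apparatus of myofibroblasts gave 27 circles from 12 genes, with 15 higher (55.6%) and 12 lower, 1 in each direction at an unadjusted p under 0.05, and a median of 0.06. Ptk2, the focal adhesion kinase, had the smallest p, with a circle of exons 8 to 14 at 1.26, 3.74, 3.01 and 1.03 and then 0.934, 0, 0, 0 and 1.84 (-1.58 ± 0.77, adjusted p = 0.593). Tns3, a tensin of focal adhesions, had a circle of exons 14 to 16 at 20.1, 4.99, 4.51 and 6.20 at 1 week and 23.4, 18.9, 6.94, 22.4 and 6.45 at 4 weeks (0.84 ± 0.41, adjusted p = 0.611). The groups overlapped in both.

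TGF-beta, BMP and SMAD signalling, a list that includes receptors and transcription factors, gave 19 circles from 11 genes. Of these 7 were higher (36.8%, against 53.5% of all circles) and 12 lower, none reached an unadjusted p of 0.05, and the median was -0.10. Over the other settings that keep all 19, between 7 and 11 were positive and the median ran from -0.32 to 0.10. The 11 and the median of 0.10 came without 4-week libraries 1 and 2. The smallest p belonged to Ltbp1, which holds latent TGF-beta in the matrix. Its circle of exons 10 to 15 measured 0, 0, 4.51 and 0 at 1 week and 7.47, 1.57, 0, 3.05 and 2.76 at 4 weeks (1.49 ± 0.77, adjusted p = 0.652). Smad4, the common SMAD, had a circle of exons 6 to 8 at 5.02, 1.25, 1.5 and 4.14 and then 7.47, 0, 0.868, 0 and 0.921 (-1.23 ± 0.76, adjusted p = 0.737).

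Wound and inflammatory signalling was represented by 6 circles of 5 genes. All 6 had positive log2 fold changes (53.5% of all circles did) with a median of 0.78 against 0.08, and 2 had an unadjusted p under 0.05; over the other settings that keep all 6, between 4 and 6 were positive, with 4 when 4-week library 2 was left out, and the median ran from 0.57 to 1.34. Osmr, the oncostatin M receptor, had a circle of exons 6 to 9 at 0, 0, 1.5 and 0 at 1 week and 1.87, 1.57, 2.6, 3.05 and 0.921 at 4 weeks (1.75 ± 0.72, adjusted p = 0.447). Il6st, the gp130 chain that Osmr pairs with, had a circle of exons 6 to 8 at 0 in all 4 libraries of 1 week and 2.80, 1.57, 0, 3.05 and 0.921 at 4 weeks (1.82 ± 0.76, adjusted p = 0.454). Both rest on few reads. The abundant member, a circle of exons 2 to 6 of the transcription factor Nfkb1, measured 25.8 ± 11.7 and 25.2 ± 9.48 (0.04 ± 0.30), and the summed level of the list was 16.3 to 38.7 at 1 week and 26.2 to 46.9 at 4 weeks.

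Cell cycle hosts gave 7 circles of 5 genes, 6 higher (85.7%, against 53.5% of all) and 1 lower, with a median of 0.55 and none at an unadjusted p under 0.05. Their summed level was 7.24 to 17.6 at 1 week and 8.29 to 24.3 at 4 weeks. The best-read, a circle of exons 17 to 19 of the spindle checkpoint kinase Bub1b, measured 4.29 ± 0.949 and 6.43 ± 2.95 (0.46 ± 0.51, adjusted p = 0.870). The smallest p was that of a junction of only 57 bases in Ncapd2, a condensin subunit, whose ends are not those of annotated exons; it measured 0.940 ± 1.20 and 2.97 ± 2.54 (1.19 ± 0.77, adjusted p = 0.752).

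The largest list, chromatin and transcription regulators, had 89 circles of 52 genes, with 42 higher (47.2%) and 47 lower, a median of -0.05, and 5 higher and 3 lower at an unadjusted p under 0.05, where 4.72% and 2.85% of all circles lay. The smallest p was that of Tcf20, described above. The chromatin remodeller Chd2 had a circle of exons 3 to 5 at 1.26, 2.49, 1.5 and 1.03 at 1 week and 8.41, 7.86, 7.81, 5.09 and 2.76 at 4 weeks. Its groups did not overlap, with a log2 fold change of 1.69 ± 0.60 (adjusted p = 0.285). The histone methyltransferase Dot1l had a circle of exons 3 to 5 at 1.26, 3.74, 3.01 and 1.03 at 1 week and 0, 0, 0, 1.02 and 0 at 4 weeks (-2.01 ± 0.76, adjusted p = 0.356). RNA-binding and splicing factors gave 37 circles of 17 genes, 14 higher (37.8%) and 23 lower with a median of -0.16. Besides Gigyf2, 1 other of them had an unadjusted p under 0.05, the circle of exons 8 to 10 of Rbm33, at 10.1 ± 5.36 and 17.6 ± 3.72 (0.92 ± 0.42, adjusted p = 0.533).

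Cell type was checked with circles of marker genes. The table lists no circle of Pdgfra, Tcf21 or Ddr2, which define cardiac fibroblasts, so the label could not be tested on them; a table of circles does not give the host's mRNA. Dcn, a fibroblast proteoglycan, had 1 circle, at 0 to 3.77 at 1 week and 0 to 3.14 at 4 weeks. Resting fibroblast hosts gave 18 circles of 12 genes, 9 higher and 9 lower with a median of 0.06, and a summed level of 144 to 353 at 1 week and 180 to 303 at 4 weeks. The highest of these sums was that of 1-week library 1. The exon 2 circle of Nfix made up most of the sums, with means of 196 at 1 week and 206 at 4 weeks. The summed means were 234 and 243, so the sums largely restate that circle.

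Circles of other cell types were present in both groups. Cardiomyocyte hosts gave 16 circles of 11 genes, 8 higher and 8 lower with a median of 0.00, summed at 46.5 to 150 at 1 week and 50.7 to 141 at 4 weeks. Library 3 was the highest in each group. Ttn, the giant sarcomere protein, summed to 17.6 to 85.7 and 28.6 to 75.5 over 3 circles, while the markers Tnnt2 and Myh6 have no circle in the table. Ryr2, the calcium release channel, had a circle of exons 59 to 62 at 7.54, 6.23, 19.5 and 9.31 at 1 week and 1.87, 3.14, 10.4, 4.07 and 2.76 at 4 weeks (-1.25 ± 0.62, adjusted p = 0.619). Endothelial hosts gave 13 circles of 9 genes, 5 higher and 8 lower with a median of -0.07, summed at 26.4 to 39.9 and 23.6 to 46.7. The smallest p among them was that of Fli1, an ETS factor, with a circle of exons 2 to 5 at 2.97 ± 1.87 and 5.37 ± 1.98 (0.87 ± 0.59, adjusted p = 0.776). The 3 circles of Pecam1 summed to 3.77 to 11.4 at 1 week and 3.05 to 12.1 at 4 weeks. Cdh5 has no circle in the table. The single mural circle, of Abcc9, measured 0 to 9.31 and 2.04 to 11.0 (log2 fold change 0.64 ± 0.62), and the single mesothelial one, of Aldh1a2, 0 to 3.01 and 0 to 5.09 (0.39 ± 0.77). Schwann, neural and adipocyte hosts gave 2 circles, both with positive values and a median of 0.60, and summed to 4.14 to 10.0 and 6.07 to 15.9; that of Lipe, the hormone-sensitive lipase, measured 0 to 2.49 and 1.57 to 5.09.

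Macrophage and other leukocyte hosts gave 30 circles of 12 genes, of which 23 were higher at 4 weeks and 7 lower, with a median log2 fold change of 0.50. At an unadjusted p under 0.05 in limma, 2 of the 30 were higher and 1 lower. Over all circles 53.5% were higher and the median was 0.08, with 4.72% higher and 2.85% lower at that p. Over the other settings that keep all 30, the median of the list ran from 0.21 to 0.68 and the number of higher circles from 18 to 23. The summed level was 202, 105, 93.2 and 121 at 1 week and 169, 192, 108, 177 and 174 at 4 weeks. The groups overlapped through 1-week library 1, the highest of all 9, and 4-week library 3. The 6 circles of Adgre1, which encodes the macrophage antigen F4/80, summed to 31.6 to 109 and 34.7 to 107. Its main circle (exons 11 to 12, chr17:57419322-57420524, plus strand) measured 74.1, 21.2, 22.5 and 19.6 at 1 week and 48.6, 69.1, 19.1, 51.9 and 40.5 at 4 weeks (0.54 ± 0.30, adjusted p = 0.721). F13a1, the A chain of clotting factor XIII, made by tissue macrophages, had a circle of exons 6 to 8 at 0, 1.25, 0 and 0 and then 5.61, 3.14, 2.6, 2.04 and 0.921 (2.14 ± 0.76, adjusted p = 0.285). Against the direction of most of the list stood the Vav3 circle of exons 13 to 15 described above. Ptprc, the pan-leukocyte marker, has no circle in the table. In bulk RNA, fewer cells of a type and less RNA per cell cannot be told apart, and the part of cell makeup in the other differences was not tested.

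**Figure D4:**
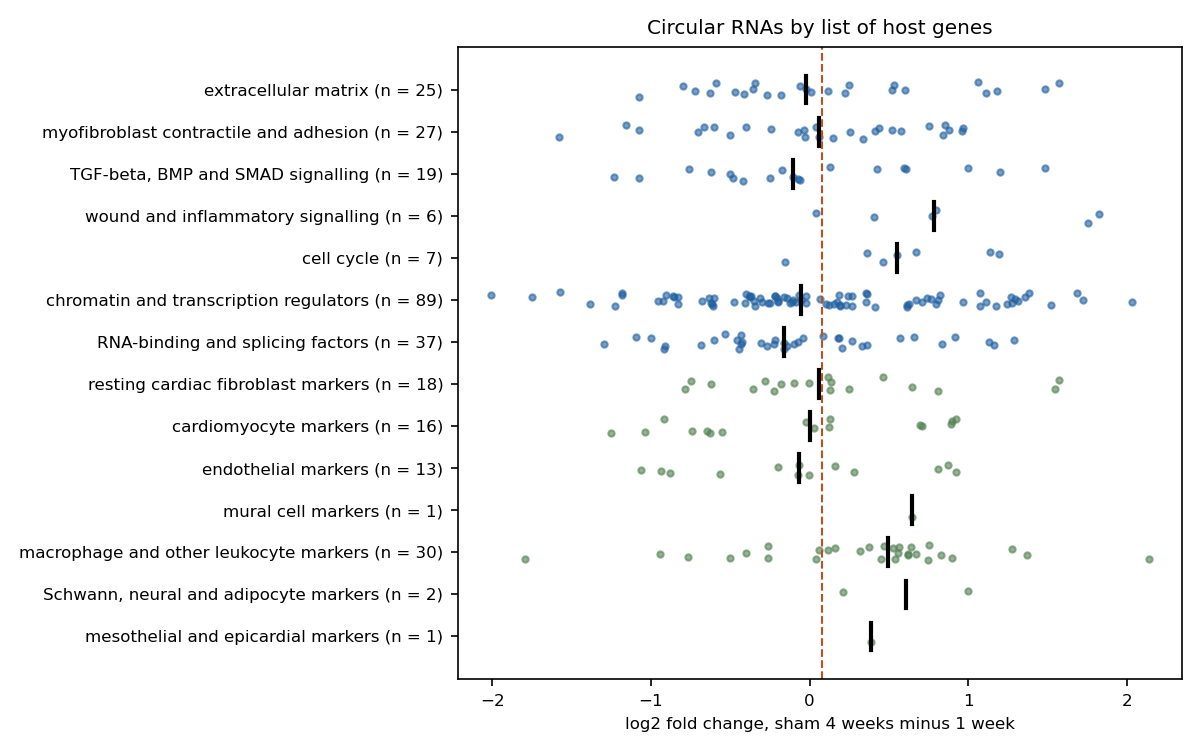
Each point is the log2 fold change of 1 circular RNA, 4 weeks against 1 week after sham surgery, by list of host genes (blue, pathways; green, cell type markers), spread vertically at random for legibility. Black bars are list medians and the dashed line is the median of all 1717 circles at 0.08; the leukocyte list has a median of 0.50 and the extracellular matrix list -0.02.

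The circles at an unadjusted p under 0.05 were compared in build with all circles, as a description. The median genomic span was 7757 bases for the 81 higher and 6790 for the 49 lower, against 6241 for all. The median spliced length was 482 and 336 bases against 420. Median GC content was 49.0% and 46.4% against 49.3%. Single-exon circles made up 7.89% and 6.38% against 6.34%, and circles with untranslated sequence 15.8% and 12.8% against 17.3%.

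Whether the change from 1 to 4 weeks differed after TAC was tested as the change in TAC minus the change in sham. No circle passed (0 of 1717, 0%), with 138 at an unadjusted p under 0.05, and limma-voom also called 0, with 147. The smallest adjusted p was 0.0658, for Efnb2. After TAC its circle measured 0, 1.92, 2.00 and 12.6 at 1 week and 8.45, 4.40, 7.99 and 10.3 at 4 weeks, so the 4-week mean was the higher in TAC (7.78 against 4.14) and the lower in sham (1.64 against 6.74). The difference of the changes was 3.58 ± 0.86 on the log2 scale. It passed without 1-week TAC library 4 (4.38, adjusted p = 0.00225), without 1-week sham library 1 (3.95, adjusted p = 0.0103), and without 4-week sham library 3 (3.89, adjusted p = 0.0203) or 5 (3.82, adjusted p = 0.0318). No circle passed in any other setting. The smallest adjusted p of any circle was 0.412 in limma with a pseudocount of 0.1 and 0.179 in limma-voom. Without 4-week TAC library 4 it was 0.319 in limma.

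For the other circles chosen above, the sham change is part of the choice, so the values in TAC are given as a description. In TAC the exons 2 and 3 circle of Tcf20 measured 11.7 ± 5.11 at 1 week and 8.21 ± 2.59 at 4 weeks (n = 4 each), against 4.26 ± 4.24 and 11.8 ± 5.18 in sham. Zfp609 measured 10.0 ± 1.04 and 12.8 ± 2.53 in TAC, and 3.55 ± 1.84 and 12 ± 3.07 in sham. Gigyf2 measured 27.6 ± 5.69 and 28.1 ± 9.72 in TAC, against 10.4 ± 3.29 and 23.6 ± 6.97. In these 3 circles the low group was sham at 1 week, and both TAC groups lay nearer to sham at 4 weeks. Tlk1 had the opposite order, with 16.7 ± 3.41 and 19.1 ± 3.26 in TAC against 41.7 ± 4.85 and 24.4 ± 15.4 in sham. The chosen circles did not share 1 pattern: in Zfp141, Mtss1 and Vav3 both TAC groups lay nearer to sham at 1 week. Zfp141 had means of 2.45 and 2.05 in TAC, against 0.940 and 5.13 in sham. Mtss1 had 3.31 and 2.44 against 3.41 and 0.187, and Vav3 (exons 13 to 15) 5.31 and 8.89 against 7.51 and 2.53. Of the 12 circles, 5 had a fold change of the same sign in TAC as in sham, and of all 1717 circles 846 did (49.3%).

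**Figure D5:**
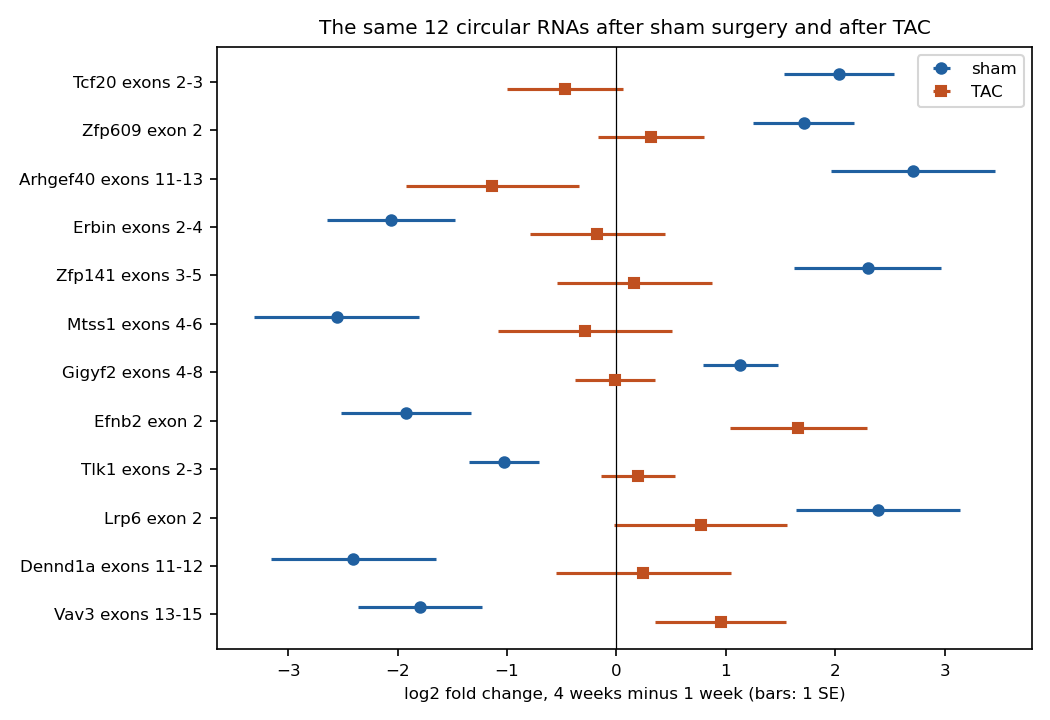
Log2 fold change of 4 weeks against 1 week, with bars of 1 SE, after sham surgery (circles, 5 against 4 libraries) and after TAC (squares, 4 against 4), for the 12 circular RNAs of smallest p in sham. No change passed the test in either; Efnb2 is at -1.92 in sham and 1.67 in TAC.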

How the data were processed

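The authors deposited a signal of normalized back-splice junction reads for 24 libraries, per the file headers. FastQC, Trimmomatic, STAR and build mm10 are named in the submitters' processing notes; the circular RNA caller's version and settings, its filters and the scaling were not given in the sources used here. After 0.01 was subtracted, 100% of the deposited values were whole numbers of reads times a factor of the library, within 0.001 of a read. The offset of 0.01 was removed throughout.

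Hosts and exon numbers came from GENCODE M21 (for 1666 of 1717 junctions, both ends matched exon ends of the gene). All circular RNAs had at least 2 reads in at least 3 libraries. A linear model with an intensity trend (limma 3.58.1, R 4.3.3) was fitted to log2(normalized reads + 0.5) in all 24 libraries with 6 groups and no covariate. Benjamini-Hochberg adjustment covered all 1717 circular RNAs, and calls had an adjusted p under 0.05. Fold changes are on this scale, which understates changes of scarce circles. The script was tested on simulated data. Library measures were compared by exact permutation (scipy 1.17.1), and numbers of circles at equal depth are expected values under random draws of reads. Floors of 3 reads and exact 95% intervals of read ratios cover counting error only. No 2 libraries of a group were identical, and each of the 16 pairs differed beyond counting noise (largest chi-square p 9.01e-06).

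Libraries are numbered as in the sample titles, and columns were matched by the sample descriptions. Text names the 12 circles of smallest p, the 5 most abundant and the one of smallest p in each host list. The comparison, members and lists were chosen with earlier results of these data known. Other settings were total-read and median-ratio scaling, pseudocounts of 0.1 and 1, a mean of at least 5 reads, no filter, limma-voom, fewer libraries in the fit, a replicate block, and each library left out.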

Additional observations from a re-analysis of the deposited data

Results flagged for a closer look

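In 12 of 124 groups of values examined, 1 library lay far from the others of its group by Dixon's criterion. Normally distributed values meet it in about 1 group in 20. That rate does not hold for circles of few reads, where 1 read among zeros meets the criterion. None of the 12 was tested for a cause.

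Among summed list levels, 4-week sham library 3 was low for myofibroblast hosts (85.9 normalized reads, the others 97.2 to 101) and for leukocyte hosts (108, the others 169 to 192), and 4-week sham library 2 was high for chromatin regulators (404, the others 384 to 389). Among single circles, the main Adgre1 circle was at 74.1 in 1-week sham library 1 and at 19.6 to 22.5 in the others, and the Ryr2 circle of exons 59 to 62 was at 10.4 in 4-week sham library 3 and at 1.87 to 4.07 in the others. Lrp6 was at 8.41 in 4-week sham library 1, against 1.02 to 3.14. In 4 cases a library held the reads of its group and the others had 0: Mtss1 in 4-week sham library 1 (0.934), Lrp6 in 1-week sham library 4 (1.03), Ltbp1 in 1-week sham library 3 (4.51) and Osmr in 1-week sham library 3 (1.5). After TAC, Efnb2 was at 12.6 in 1-week library 4, against 0 to 2.00, and Zfp609 at 8.99 in 4-week library 4, against 13.8 to 14.4.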

How the results depend on the processing

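Calls in sham at 4 weeks against 1 week numbered 0 under total-read and median-ratio scaling, pseudocounts of 0.1 and 1, and limma-voom. They also numbered 0 with the 9 sham libraries alone and with 3 of the 5 libraries at 4 weeks. The latter fit left out the pair whose descriptions lack the others' numbering. The setting without a filter repeats the full fit, because every circle passed the filter. There was 1 call (Zfp609) among circles with a mean of at least 5 reads, where 272 were tested. Leaving out each library gave 0 to 4 calls: Rabep1, Erbin, Zfp141 and Zfp609 without 1-week library 1, Tcf20 and Mettl9 without 1-week library 3, and Tcf20 without 1-week library 4 or 4-week library 3. For the change in TAC minus that in sham, leaving out each library gave 0 to 1 calls, and the other settings 0. The difference in total reads, 985, ran from 675 to 1497 over libraries left out.

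The replicate block, fitted in the 9 sham libraries, where the unmatched 4-week library 5 adds nothing to the contrast, gave 0 calls and 95 circles at an unadjusted p under 0.05, against 96 in the same 9 libraries without it and 130 in the fit of all 24. Libraries of the same number correlated in their deviations from the group means at 0.052, 0.0069, 0.279 and -0.0057. Not every library correlated best with its own number, so the numbers were not taken as pairs. These numbers, also used for the block, are those of the sample titles. The sample descriptions number the 4-week sham libraries otherwise, and pairing by the descriptions was not tested.

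Several of these settings repeat the log2 fold changes of the full fit by construction, and the 12 named circles were chosen for their change, so their direction is no sign of stability. The log2 fold changes ran, for example, from 1.20 (without 1-week library 1) to 2.69 (Tcf20), 1.42 to 1.92 (Zfp609), -2.63 to -1.50 (Erbin) and 1.00 to 1.34 (Gigyf2). Circles with a few reads in all, such as Arhgef40 (1.93 to 4.83) and Dennd1a (-4.47 to -1.67), had both extremes at the other pseudocounts.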

Other observations

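Of the 1717 circular RNAs, 5 had no read at 1 week and a read in every 4-week sham library, and 2 had the reverse. In all, 25 had no read at 1 week alone and 7 had none at 4 weeks alone. The 1-week libraries held 18724 reads together and the 4-week libraries 28329. The part of this unequal depth in the counts was not tested. Besides Arhgef40, 4 circles had 0 reads in all 1-week sham libraries and reads in all 5 libraries of 4 weeks: Dennd4a (exons 9 to 13, 0.934 to 6.28 normalized reads, 11 reads in all), Hlcs (exons 3 to 5, 0.868 to 3.14, 10 reads), Uri1 (exons 2 to 4, 0.921 to 3.74, 10 reads) and Gmds (exons 2 to 4, 0.868 to 3.74, 8 reads). Hlcs encodes the ligase that attaches biotin to carboxylases, and Gmds the first enzyme of GDP-fucose synthesis. Besides Dennd1a, the noncoding host Lncppara (exons 3 to 6) had the reverse pattern, at 1.03 to 5.02 in the 1-week libraries, 8 reads in all, and 0 in the 5 libraries of 4 weeks. Their adjusted p in limma was 0.221 for Lncppara and 0.252 to 0.432 for the others, so none passed. In the sham libraries of 8 weeks the circles of Dennd4a, Hlcs, Uri1, Gmds and Lncppara were each read in 2 or 3 of the 4.

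Single 1-week libraries lacked circles that were well read elsewhere. The circle of Rabep1, a Rab5 effector of endosome fusion (exons 2 to 3), measured 0 in 1-week library 1 and 12.5, 18 and 10.3 in the other 3, against 0.868 to 6.28 at 4 weeks. That of Mettl9, a methyltransferase (exons 2 to 4), measured 0 in the same library and 15, 28.6 and 13.4 in the other 3, against 8.14 to 24.3 at 4 weeks. Both circles were chosen after their values were seen. Their log2 fold changes were -1.10 ± 0.54 and 0.96 ± 0.39 with all libraries; Mettl9 had a positive value although its means were nearly equal, 14.2 and 14.9.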
